A study of Mus musculus with 12 samples.

Results

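The comparison asked whether targeting Fabp5 in myeloid cells altered the transcriptional response of paw myeloid cells to carrageenan. It was read as a difference of differences: the genotype effect after carrageenan minus the genotype effect after saline, for each gene and each pathway list. All 12 of the 12 libraries of the series entered it. CD45+/CD11b+/Ly6G- cells (leukocytes of the myeloid lineage, with neutrophils gated out) were sorted from mouse hind paws 4 h after injection of sterile saline or 1% carrageenan. FABP5Flox mice (Flox below) carry the floxed Fabp5 gene without Cre, and FABP5Flox/LysM-Cre mice (cKO below, a conditional knockout) carry the floxed gene and a Cre recombinase driven from the lysozyme 2 locus. The 4 groups, Flox saline, cKO saline, Flox carrageenan and cKO carrageenan, had 3 libraries each. Each library pooled cells of 3 or 4 adult mice, which came to 10 mice in each Flox group and 12 in each cKO group; age in weeks and sex were not given. Every group thus carried the floxed allele, and no group carried LysM-Cre alone, so that Cre, the altered lysozyme locus and the loss of Fabp5 cannot be told apart.

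FABP5 is a small cytosolic protein that binds long-chain fatty acids and endocannabinoids, carries them to the enzymes that break them down, and delivers ligands to nuclear receptors of the PPAR family. Carrageenan, a seaweed polysaccharide, is a standard trigger of acute paw inflammation: resident macrophages sense it, NF-kB and AP-1 induce cytokines, chemokines and prostaglandin synthesis, and monocytes enter the tissue within hours. The same cells raise brakes on that program, such as the ubiquitin-editing enzyme A20 (gene Tnfaip3), inhibitors of NF-kB, and phosphatases of the MAP kinases. In sorted bulk samples, a difference in which cells were present and a difference in RNA per cell cannot be told apart.

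Values are normalized counts as deposited, listed by library in the order of the mouse numbers of the pools (1-3, 4-7 and 8-10 for Flox, 1-4, 5-8 and 9-12 for cKO). Differences are on the scale of log2(normalized count + 1), and a positive difference means that the step from saline to carrageenan was more upward in cKO than in Flox. The libraries were shallow and uneven: Flox libraries held 111925 to 994161 reads on genes and cKO libraries 508407 to 2987015, a ratio of geometric means of 4.99 between genotypes. A read was worth between 0.268 and 5.46 normalized counts. Flox saline 1-3, the shallowest library, stood apart from all others on the first principal component, at -189.7 against -2.33 to 27.8. On the second component cKO carrageenan 9-12 stood apart from its own group, at 45.95 against -14.05 and -4.17. Flox carrageenan 4-7 was at 110 there, against 59.95 and 28.2 in its group.

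Fabp5 itself (ENSMUSG00000027533, chr3:10012548-10016607 of GRCm38, plus strand) was read at 5.46, 36.5 and 23.9 normalized counts in Flox saline and 6.36, 4.29 and 11.8 in cKO saline. After carrageenan it stood at 43.1, 94.9 and 32.8 in Flox and 6.01, 11.1 and 22.3 in cKO, so the genotypes did not overlap after carrageenan but did after saline, where Flox saline 1-3 held 1 read of the gene. The genotype effect was -1.20 after saline and -2.06 after carrageenan, and the difference of -0.86 ± 1.00 (95% interval -3.01 to 1.29; limma, adjusted p = 0.967) was not distinguishable from 0. Without the shallowest library of each treatment that difference turned to 0.32. Lyz2, the lysozyme gene into which Cre is inserted, was lower in cKO in both treatments (-0.57 and -1.14), with a difference of -0.58 ± 0.46. Its neighbour and close paralog Lyz1 was higher in cKO in both treatments (1.20 and 1.37), with a difference of 0.17 ± 0.35 (adjusted p = 0.972, limma); reads of such near-identical genes can be split by counting.

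The test detected no gene whose genotype effect differed between saline and carrageenan. With limma and Benjamini-Hochberg adjustment, 0 of 10243 tested genes (0%) passed an adjusted p of 0.05, and the smallest adjusted p was 0.967. At an unadjusted p under 0.05 there were 244 genes (2.38%), of which 98 were positive (0.957%) and 146 negative (1.43%). A 5% share would be reached if p-values were evenly spread. Count models on the whole reads also gave 0 adjusted calls each (0%), with unadjusted shares of 2.32% for edgeR, 2.93% for DESeq2 and 2.57% for limma voom. The values that follow are therefore descriptions of leading genes and lists, none of which passed the test. The adjusted p (limma) was 0.967 for each gene described below unless another is given.

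What these libraries could have shown depended on the level of the gene. The median standard error of a difference was 0.833. The median 95% interval reached 2.59 to either side for the 2608 genes with a mean under 10 normalized counts, and 0.907 for the 628 genes with a mean of at least 200. A difference smaller than that could not be told from 0 for a typical gene of that level, taken singly. Passing the adjustment over 10243 genes would have taken a larger one. The median difference over all tested genes was -0.149 (quartiles -0.753 and 0.353), with 42% of genes positive and 58% negative. That median was farthest from 0 among the low genes: it was -0.358 under a mean of 10 and -0.0293 at 200 and above. It was 0.0321 with edgeR and 0.0470 without Flox saline 1-3, so the direction of the bulk of genes rests on that library and on the model.

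Most genes that responded to carrageenan had a smaller response in cKO than in Flox, but that share moved with thinning of the reads and with how the genes were chosen. Averaged over genotypes and on a common scale, 696 of 10240 genes rose with carrageenan (6.8%) and 498 fell (4.86%) at an adjusted p under 0.05 (limma). Among the genes that rose, the response was smaller in cKO for 474 (68.1%; exact 95% interval 64.5 to 71.6), while the step was lower in cKO for 56.7% of all genes. The median response of those genes was 1.77 in Flox and 1.37 in cKO. Among the genes that fell, 388 had a smaller response in cKO (77.9%, interval 74.0 to 81.5), while the step was higher in cKO for 43.3% of all genes. The genes are not independent, and these intervals cover counting of genes only. The share depended on which genotype chose the genes: 80.6% of the 453 risen genes chosen in Flox alone were smaller in cKO, but 40.9% of the 215 chosen in cKO alone. For genes that fell, these shares were 94.0% of 281 and 51.8% of 56. Flox libraries were shallower, so every library was also thinned to the reads of the shallowest. Of the 403 genes that then rose, 56.8% (interval 51.8 to 61.7) were smaller in cKO. That was near the 53.9% of all genes with a lower step in cKO there. Of the genes that fell after thinning 72.4% were smaller, against 46.1% of all genes with a higher step. Without thinning, an adjusted p under 0.01 (limma) also left 403 risen genes, of which 61.8% were smaller in cKO. Thinning changed both the depth and the genes chosen, and the part of depth was not tested.

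**Figure D1:**
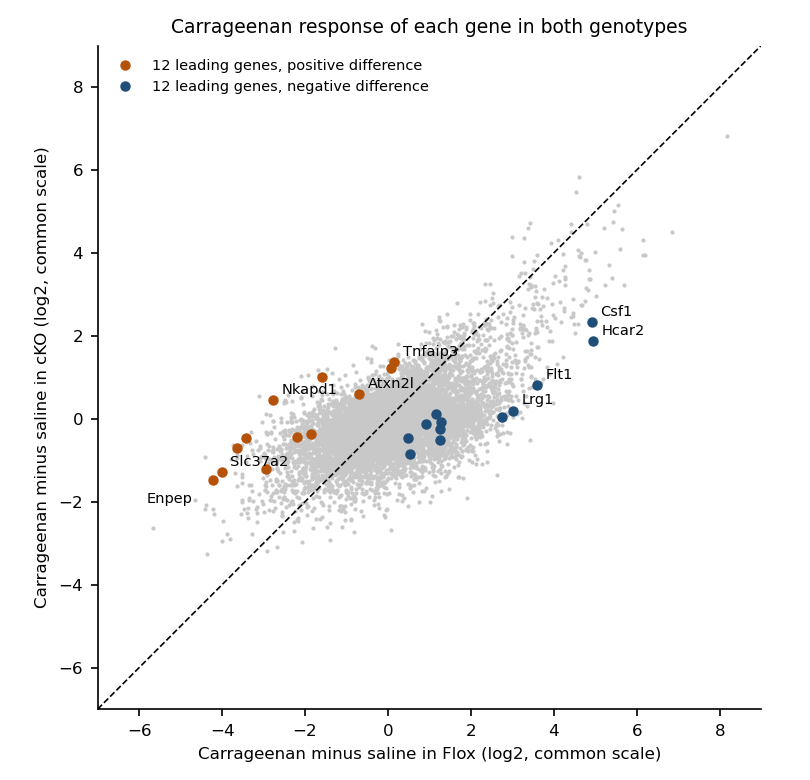
Carrageenan minus saline (log2, common scale) in Flox on the x axis and in cKO on the y axis; each grey point is 1 of 10240 genes, the dashed line marks equal responses, and coloured points are the 12 leading genes in each direction. The leading genes were picked by the smallest p of the difference, so their place away from the line follows from that choice. The cloud of genes runs along the line (Pearson r across genes 0.623, a description, since genes are not independent).

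Among the 12 leading genes with a positive difference (the smallest p among genes with a mean of at least 20 normalized counts), all had a higher mean log2 value in cKO than in Flox after carrageenan, and most a lower one in saline. Atxn2l (ENSMUSG00000032637, chr7:126491708-126503437, minus strand), which encodes an RNA-binding protein of stress granules, was read at 147, 160.4 and 122 in Flox saline and 61.2, 106 and 79.6 in cKO saline. After carrageenan it was read at 76.1, 101 and 72.2 in Flox and 135, 109.6 and 95.2 in cKO. Flox was above cKO in every saline library, and after carrageenan the lowest cKO value lay below the highest Flox value. The difference was 1.26 ± 0.39 (adjusted p = 0.967, limma). Nup153, a component of the nuclear pore basket, stood at 65.5, 36.5 and 46.6 in Flox saline and 13.4, 38.6 and 17.4 in cKO saline. After carrageenan it stood at 38.04, 6.55 and 11.7 in Flox and 43.05, 43.4 and 34.2 in cKO. The first Flox library lay among the cKO libraries after carrageenan and the others lay below them; the difference was 2.57 ± 0.80. Fli1, an ETS family transcription factor of blood cells, overlapped between genotypes in saline (76.5, 122 and 58.02 in Flox, 54.8, 55.4 and 59.7 in cKO). After carrageenan every cKO library (28.4, 19.4 and 19.3) was above every Flox library (7.61, 6.55 and 15.3), and the step from saline was -2.93 in Flox and -1.21 in cKO, for a difference of 1.69 ± 0.58.

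Dip2b followed the same order after carrageenan, with 12.7, 13.1 and 27.7 in Flox and 45.7, 44.5 and 78.8 in cKO, from overlapping saline values of 131, 68.1 and 69.4 in Flox and 93.3, 88.9 and 62.8 in cKO (difference 1.73 ± 0.56). Tiparp, an ADP-ribosyltransferase induced by the aryl hydrocarbon receptor, was at 63.4, 78.5 and 101 in Flox carrageenan and 148, 153 and 180.0 in cKO carrageenan. Its saline values overlapped (65.5, 75.3 and 102 in Flox, 54.1, 100.4 and 74.6 in cKO), and the difference was 1.10 ± 0.42. L1cam, a cell adhesion molecule, differed by 1.47 ± 0.55 and also had every cKO carrageenan library above every Flox one. Flox reads after carrageenan were few for many genes of this group: Nup153 held 15, 2 and 16, Fli1 3, 2 and 21, Dip2b 5, 4 and 38 and L1cam 9, 4 and 31. St3gal5, which makes the ganglioside GM3, held 1, 0 and 7 reads in the Flox carrageenan libraries, Thap11, a transcription factor, 1, 0 and 10, Enpep, an aminopeptidase that cleaves angiotensin, 0, 0 and 6, and Slc37a2, a sugar-phosphate exchanger of macrophages, 1, 0 and 14. Their differences were 2.89 ± 0.96, 2.91 ± 0.98, 2.66 ± 0.93 and 2.67 ± 0.97. Each of these differences kept its sign in every setting that gave a value. The genes were picked by this difference and the settings reuse the same libraries, so a kept sign is not separate support. Nkapd1, the last of the 12, is described with the crossing genes.

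Tnfaip3 (ENSMUSG00000019850, chr10:19000910-19015657, minus strand), the brake A20 that removes activating ubiquitin chains from NF-kB signalling proteins, was also among these 12. It was read at 371, 389 and 289 in Flox saline, 176, 329 and 203 in cKO saline, 317, 399 and 375 in Flox carrageenan and 749, 623 and 344 in cKO carrageenan. The genotypes overlapped within each treatment, with Flox mostly higher in saline and cKO mostly higher after carrageenan. The step from saline was 0.15 in Flox and 1.37 in cKO, and the difference was 1.19 ± 0.44 (adjusted p = 0.967, limma), and from 0.96 to 1.52 when each library was left out in turn.

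**Figure D2:**
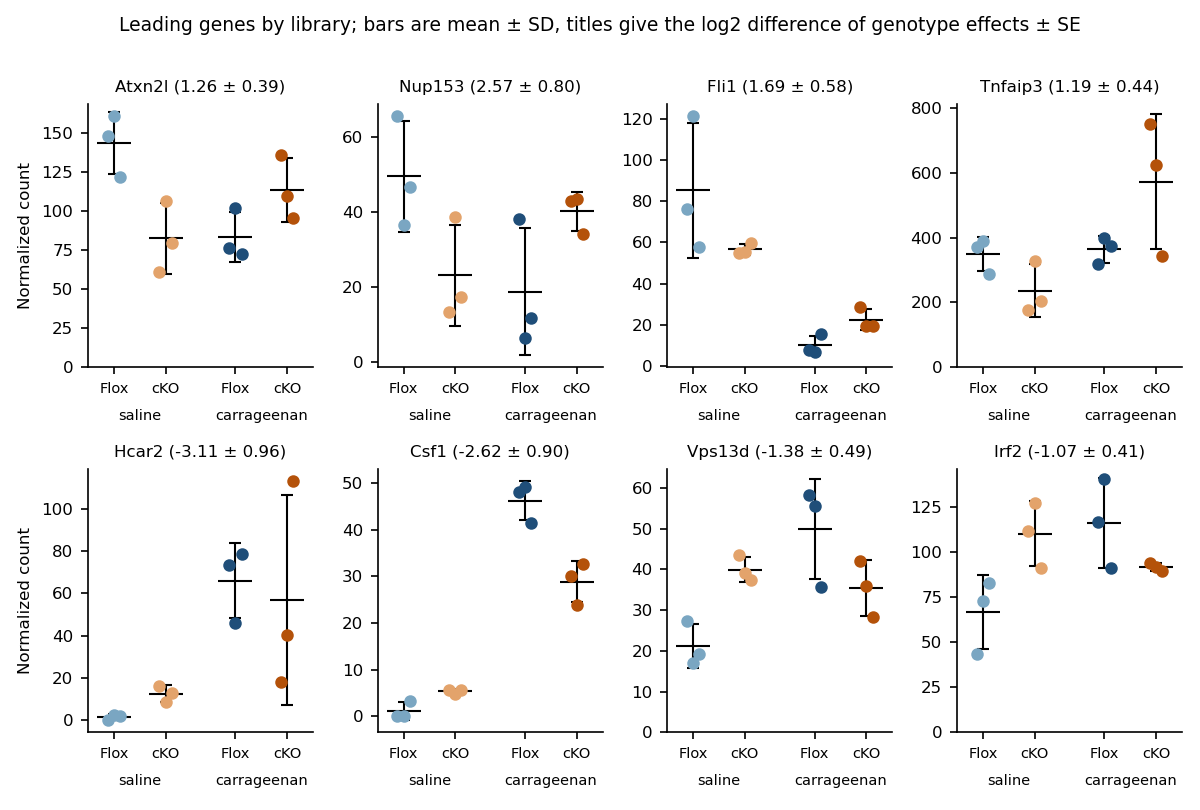
Normalized counts (y axis) of 8 leading genes in each library, by group (x axis); points are libraries, bars are the mean and SD of 3 libraries. In the upper genes the cKO to Flox order moves up after carrageenan and in the lower genes it moves down, and within most groups the points lie far apart.

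The 12 leading genes with a negative difference all had a higher mean log2 value in cKO than in Flox in saline, and all but S100a16 a lower one after carrageenan. Several were at or near 0 in Flox saline. Markers of fibroblasts and of endothelial and mural cells, which the gate should leave out, had their lowest summed counts in Flox saline too (given with the cell markers), and their part in these differences was not tested. Csf1 (ENSMUSG00000014599, chr3:107741048-107760469, minus strand) encodes the growth factor on which macrophages depend. It was read at 0, 0 and 3.41 in Flox saline (0, 0 and 3 reads) and 5.66, 4.82 and 5.60 in cKO saline (16, 18 and 9 reads). After carrageenan the order was the opposite, with 48.2, 49.1 and 41.5 in Flox and 30.03, 23.99 and 32.7 in cKO and no overlap in either treatment. The difference was -2.62 ± 0.90 (adjusted p = 0.967, limma) and -2.02 with edgeR; with 3 reads in all of Flox saline, its size depends on the pseudocount. Hcar2, the receptor for nicotinic acid and the ketone body beta-hydroxybutyrate, held 0, 1 and 2 reads in Flox saline and 46, 32 and 21 in cKO saline. After carrageenan it stood at 73.5, 45.8 and 78.7 in Flox and 18.02, 40.3 and 113 in cKO, which overlapped, and its difference was -3.11 ± 0.96.

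Irf2, a transcription factor that restrains interferon responses, was better covered. It was read at 43.7, 72.9 and 83.1 in Flox saline and 112, 127 and 91.4 in cKO saline, where every cKO library was higher. After carrageenan the values were 117, 141 and 91.1 in Flox and 93.8, 91.9 and 89.2 in cKO and overlapped, and the difference was -1.07 ± 0.41. Vps13d, a lipid transfer protein at organelle contacts, showed the same order, with 27.3, 17.01 and 19.3 in Flox saline and 43.5, 39.1 and 37.3 in cKO saline, then 58.3, 55.6 and 35.7 in Flox carrageenan and 42.05, 35.98 and 28.3 in cKO carrageenan (difference -1.38 ± 0.49). Flt1, a receptor for VEGF, had 0, 4.86 and 7.96 in Flox saline, 11.3, 9.91 and 14.3 in cKO saline, 53.3, 45.8 and 29.9 in Flox carrageenan and 13.7, 14.8 and 37.2 in cKO carrageenan, with a difference of -2.81 ± 1.05. The other members were Cdk2ap2 (-0.99 ± 0.38), Sap30l of the Sin3 deacetylase complex (-1.78 ± 0.69), Atf7ip, a partner of the histone methyltransferase SETDB1 (-1.53 ± 0.60), the kinase Tesk1 (-1.40 ± 0.56), Lrg1 (-2.84 ± 1.14), the collagen-modifying enzyme Plod3 (-1.08 ± 0.44) and the calcium-binding S100a16 (-2.74 ± 1.13). Lrg1 and S100a16 were at 0 reads in Flox saline 1-3, and S100a16 came to -1.15 with edgeR. These 12 genes kept their sign in every setting that gave a value, but they too were picked by this difference in the same libraries.

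In 28 of 10243 genes (0.273%) the genotypes did not overlap in either treatment and had opposite orders, and 10 of these genes had a mean of at least 20 normalized counts. Taken singly, the groups did not overlap in saline for 16.1% of all genes and in carrageenan for 15.1%. With 3 libraries against 3, random order alone gives some genes such a crossing, and an excess over that was not tested. Ptges3, the co-chaperone p23, which is also described as a cytosolic prostaglandin E synthase, was among the better covered. It stood at 180.2, 170.1 and 152 in Flox saline above 77.4, 102 and 126 in cKO saline, and at 119, 121 and 122 in Flox carrageenan below 122, 129 and 144 in cKO carrageenan; the margin after carrageenan was narrow (difference 0.86 ± 0.33, adjusted p = 0.967, limma). H2afy, the histone variant macroH2A1, took the opposite turn. It was read at 92.9, 124 and 138 in Flox saline and 154, 179.7 and 159 in cKO saline, then at 249, 281 and 249 in Flox carrageenan and 221, 247 and 241 in cKO carrageenan (difference -0.62 ± 0.31). Besides Csf1, the other crossing genes of this level were Nkapd1 (3.18 ± 1.17), the RNA-binding Zfp638 (1.16 ± 0.50), the mitochondrial fission regulator gene Mtfr1l (-1.12 ± 0.50), the mitochondrial ribosomal protein gene Mrpl18 (-1.29 ± 0.59), the phosphatidate phosphatase Lpin2 (0.92 ± 0.45), Nelfa of the elongation factor NELF (-2.27 ± 1.18) and Rsbn1 (-2.28 ± 1.29). Csf1, Nelfa and Rsbn1 had 0 reads in Flox saline 1-3.

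**Figure D3:**
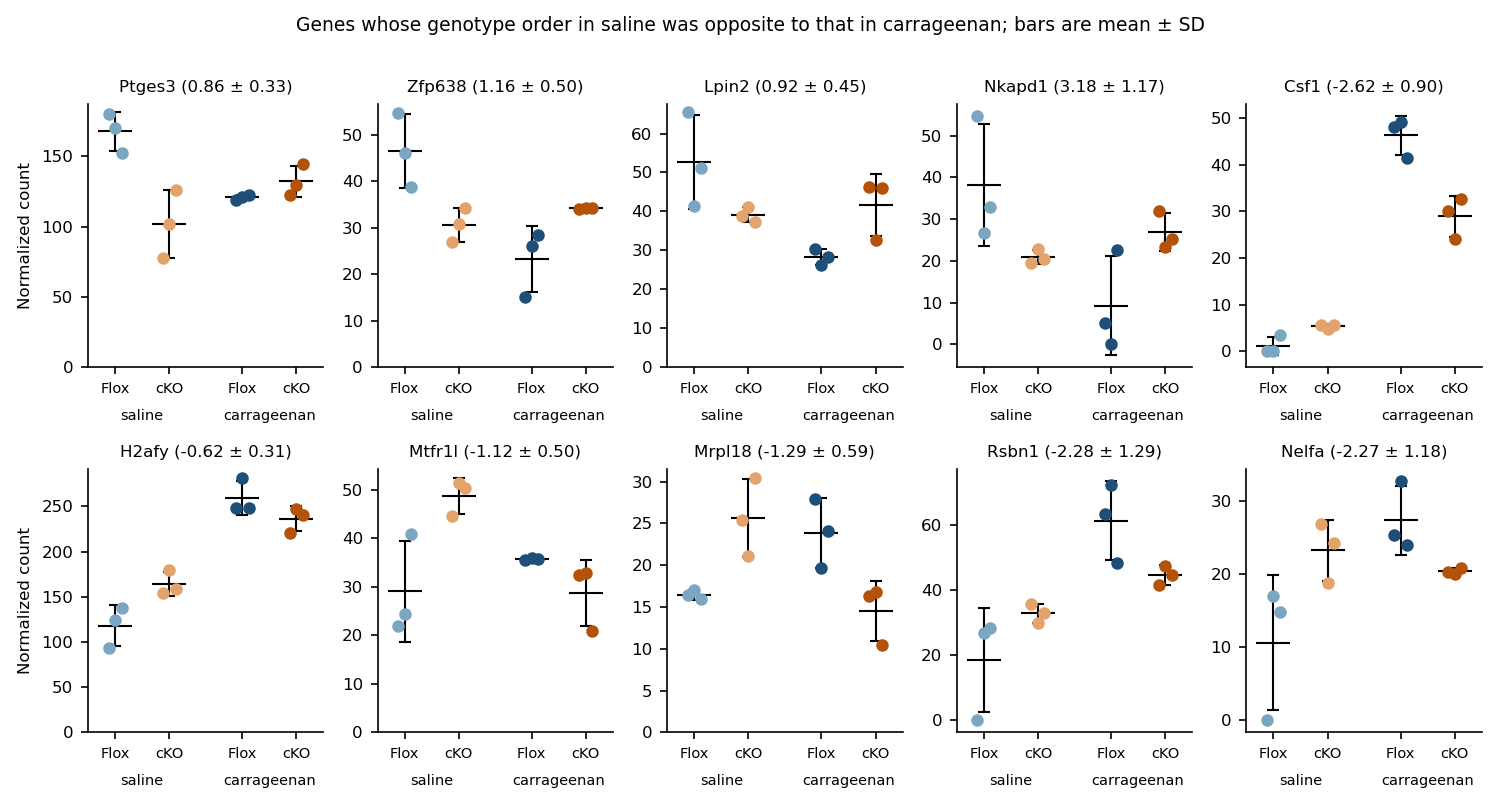
Normalized counts (y axis) in each library by group (x axis) for the genes with a mean of at least 20 whose genotypes did not overlap and changed order between treatments; points are libraries and bars the mean and SD of 3 libraries. In each panel the higher genotype in saline is the lower one after carrageenan, and in several panels the margin between the nearest libraries is small.

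The pathway lists are given by the median difference of their tested members, the number of members that were positive (42% of all genes were), and the number with an unadjusted p under 0.05 (0.957% of all genes positive, 1.43% negative). No member of any list passed an adjusted p of 0.05. Of 53 lists, 16 had a positive median and 37 a negative one, and 17 kept the sign of their median in all 25 alternative settings (6 positive, 11 negative).

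The brakes and transducers of NF-kB made up 2 of the 6 lists whose median was positive throughout. For the NF-kB subunits and inhibitors, 12 of 15 tested members were positive, with a median of 0.44 (0.45 with edgeR, 0.22 to 0.54 on leaving out each library) and 0 members under p 0.05. With library quality weights that median fell to 0.06, close to 0. The median genotype effect of the list was -0.41 after saline and -0.12 after carrageenan, so it was nearer 0 after carrageenan. Nfkbiz, the inducible nuclear cofactor of NF-kB, was at 502, 498 and 373 in Flox saline and 304, 434 and 299 in cKO saline, and after carrageenan at 279, 275 and 328 in Flox and 407, 318 and 353 in cKO, where it overlapped (difference 0.70 ± 0.33). Rel, the c-Rel subunit, differed by 0.78 ± 0.38, and Chuk, the kinase IKK-alpha, by 0.59 ± 0.39. For TNF, its receptors and their signalling partners, 10 of 13 members were positive with a median of 0.48 (0.51 with edgeR), and 1 member, Tnfaip3, was under p 0.05. In that list Tnip3, a partner of A20, differed by 0.80 ± 0.41 and Birc3, the ubiquitin ligase cIAP2, by 0.48 ± 0.33. Resident macrophage markers, described further on, had a positive median as well (0.53), and their part in the medians of these lists was not tested.

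The promoters of 3 of these genes are shown because Tnfaip3 and Rel, on the positive side, and Csf1, on the negative side, all held the binding motif of NF-kB (the kB motif, searched on both strands). For Tnfaip3, the 1 of its 2 windows with the most matches was taken, and it lies almost wholly within the gene as placed above. Each run is the 250 bases before a RefSeq start on the coding strand of GRCm38.p6, with matches in capitals: chr10:19015411-19015660 for Tnfaip3, chr11:23770970-23771219 for Rel and chr3:107760470-107760719 for Csf1.
Tnfaip3: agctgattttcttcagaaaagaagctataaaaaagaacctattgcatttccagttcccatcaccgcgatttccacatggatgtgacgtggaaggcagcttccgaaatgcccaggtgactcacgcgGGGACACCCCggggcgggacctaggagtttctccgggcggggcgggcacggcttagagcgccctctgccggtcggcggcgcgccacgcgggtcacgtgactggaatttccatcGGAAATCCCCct
Rel: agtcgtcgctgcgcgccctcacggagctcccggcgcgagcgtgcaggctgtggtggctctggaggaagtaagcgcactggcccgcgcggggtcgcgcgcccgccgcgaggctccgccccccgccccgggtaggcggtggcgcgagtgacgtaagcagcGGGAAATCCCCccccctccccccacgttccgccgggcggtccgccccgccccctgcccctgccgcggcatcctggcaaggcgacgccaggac
Csf1: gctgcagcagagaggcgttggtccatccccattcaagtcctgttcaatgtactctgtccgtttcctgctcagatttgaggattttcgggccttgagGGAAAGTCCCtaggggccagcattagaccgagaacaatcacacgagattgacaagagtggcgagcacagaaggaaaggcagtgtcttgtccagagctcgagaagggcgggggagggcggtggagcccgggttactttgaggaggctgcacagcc
The matches of Tnfaip3 begin 125 and 12 bases before the start, the overlapping matches of Rel 92 and 91 bases, and that of Csf1 154 bases before it. Of all 32851 RefSeq promoter windows of that length, 2382 (7.25%) held the motif, as did 10.8% of the 7938 tested genes found in that table when any of their windows counted. It was found in 5 of 11 NF-kB genes with a window (Nfkb2, Nfkbia, Nfkbid, Nfkbie and Rel) and in 4 of 12 TNF list genes. It was also in 4 of 10 CXC chemokines, a list with a negative median. Of the resident macrophage markers, a list with a positive median, 1 of 13 held it. It was in 2 of 10 leading positive genes (Dip2b, Tnfaip3) and 4 of 11 leading negative genes (Csf1, Flt1, Irf2, Vps13d), so both directions held it. A match describes letters in a window and not binding.

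The lists of mRNA decay and MAP kinase feedback genes and of AP-1 and immediate early genes gave smaller positive medians. For mRNA decay factors and MAP kinase phosphatases, 10 of 14 members were positive with a median of 0.20 (0.13 to 0.29 on leaving out each library). One of them was under p 0.05: Dusp16, a phosphatase of JNK, at 153, 58.3 and 53.5 in Flox saline, 30.1, 35.6 and 29.9 in cKO saline, 53.3, 121 and 102 in Flox carrageenan and 73.4, 78.8 and 122 in cKO carrageenan. Every Flox saline library was above every cKO saline library, the genotypes overlapped after carrageenan, and the difference was 1.31 ± 0.58. Dusp2 differed by 0.62 ± 0.35 and Btg1, a cofactor of mRNA deadenylation, by 0.79 ± 0.68. AP-1 and immediate early genes were positive in 14 of 20 with a median of 0.18 (-0.05 to 0.27). The transcription factors Klf6 (0.70 ± 0.33) and Klf4 (0.89 ± 0.47) led that list on the positive side, and Ier3 was at -0.92 ± 0.53.

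**Figure D4:**
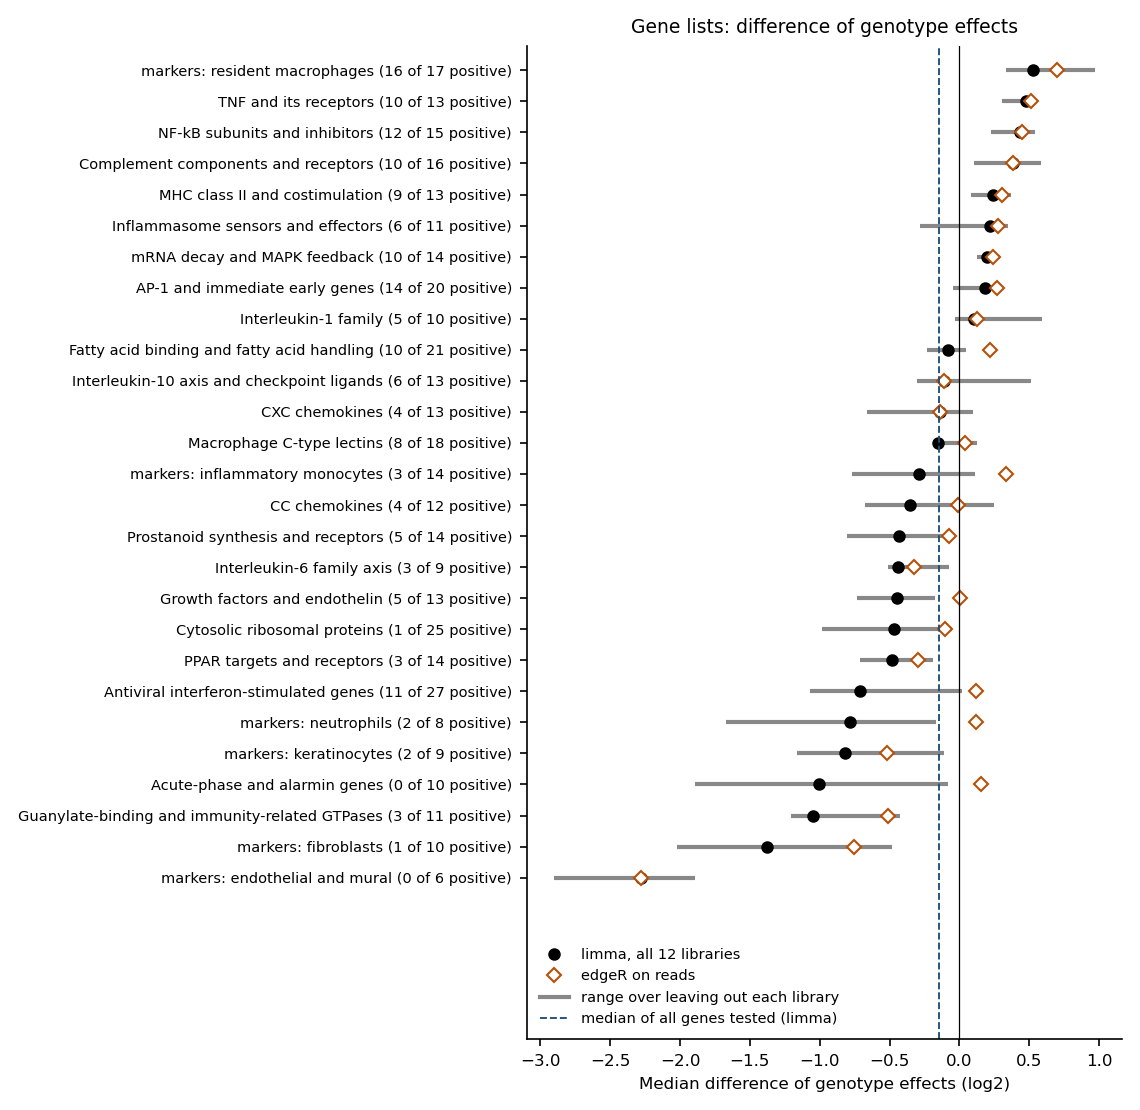
Median difference of genotype effects (log2, x axis) for 27 lists (y axis, with members positive of members tested): limma on all libraries (filled), edgeR on reads (open), and the range on leaving out each library (bars). Resident macrophage, TNF and NF-kB lists lie to the right of 0 under all of these, and fibroblast and endothelial markers to the left.

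For the main mediators of inflammatory pain, the interval of the difference included 0. Ptgs2, Il1b and Tnf were picked for their role in inflammatory pain and not by the naming rule. Ptgs2, the inducible cyclooxygenase, went from 38.2, 14.6 and 101 in Flox saline and 28.99, 50.6 and 37.3 in cKO saline to 408, 429 and 376 in Flox carrageenan and 232, 344 and 480.4 in cKO carrageenan. The steps were 3.44 in Flox and 3.23 in cKO, and the difference was -0.23 ± 0.71 (95% interval -1.76 to 1.29; adjusted p = 0.977, limma). For Il1b the steps were 1.53 and 1.5, with a difference of -0.05 ± 0.47 (interval -1.06 to 0.96; adjusted p = 0.994, limma). For Tnf they were 0.41 and 0.25, with a difference of -0.19 ± 0.62 (interval -1.52 to 1.14; adjusted p = 0.979, limma). The intervals of all 3 reach past 0.9 in both directions, and the sign of each difference turned with edgeR and DESeq2. Il6 was read at 16.4, 12.2 and 19.3 in Flox saline, 21.6, 28.9 and 18.7 in cKO saline, 124, 101 and 112 in Flox carrageenan and 111, 133 and 80.3 in cKO carrageenan. Both genotypes stood several-fold higher after carrageenan and overlapped there, and its difference was -0.58 ± 0.46.

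Its family had a negative median: 3 of 9 members of the interleukin-6 axis were positive, with a median of -0.44 (-0.33 with edgeR) and 0 members under p 0.05. Lif differed by -2.10 ± 1.27 and Osm, oncostatin M, by -0.99 ± 0.61. In the interleukin-1 family 5 of 10 were positive (median 0.11). One was under p 0.05: Il1rl1, the receptor for interleukin-33, with 153, 38.9 and 18.2 in Flox saline and 37.1, 21.2 and 17.4 in cKO saline. After carrageenan it was at 0, 0 and 10.2 in Flox and 14.3, 13.4 and 7.44 in cKO, and the Flox reads were 0, 0 and 14 (difference 3.43 ± 1.31). The co-receptor Il1rap differed by 1.25 ± 0.76 and the decoy receptor Il1r2 by 0.99 ± 0.70.

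Among the chemokines 1 gene was under p 0.05. Of the CXC chemokines 4 of 13 were positive, with a median of -0.14, and of the CC chemokines 4 of 12, with a median of -0.36 that was -0.01 with edgeR. Both medians turned without Flox saline 1-3, to 0.098 with 8 of 13 positive and to 0.25 with 9 of 12 positive. Cxcl16, a membrane-bound chemokine that is also a scavenger receptor, was that gene. It stood at 382, 279 and 329.9 in Flox saline, above 248, 257 and 240.0 in cKO saline, and at 350.0, 367 and 463 in Flox carrageenan, overlapping 523, 463 and 433 in cKO carrageenan; the difference was 0.67 ± 0.30. Cxcl10, an interferon-induced attractant of T cells, was higher in cKO in both treatments: 0, 19.4 and 17.1 in Flox against 83.4, 80.3 and 34.2 in cKO in saline, and 365, 576 and 557 against 951, 833 and 881 after carrageenan. Its difference of -2.26 ± 1.15 came with a smaller log2 gap after carrageenan, and Flox saline 1-3 held 0 reads. The CC chemokines with the smallest p were Ccl6 (-0.78 ± 0.41), Ccl8 (0.53 ± 0.43) and Ccl17 (-0.70 ± 0.65).

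The lipid pathways closest to FABP5 gave no gene past the test. Of 21 genes for binding and handling fatty acids, 10 were positive (median -0.08, 0.22 with edgeR) and 1 was under p 0.05. That was Slc27a4, a fatty acid transport protein, at 0, 12.2 and 25.03 in Flox saline, 43.1, 31.6 and 29.9 in cKO saline, 10.1, 55.6 and 24.8 in Flox carrageenan and 16.7, 21.1 and 10.4 in cKO carrageenan. All cKO saline libraries were above all Flox ones, Flox saline 1-3 being at 0, and the genotypes overlapped after carrageenan (difference -2.96 ± 1.34, -1.78 with edgeR). Slc27a1 differed by 1.08 ± 0.79, and Mgll, the lipase that breaks down the endocannabinoid 2-arachidonoylglycerol, by -2.15 ± 1.56. PPAR receptors and targets were positive in 3 of 14 tested genes of 18 listed, with a median of -0.48 (-0.30 with edgeR, -0.71 to -0.19 on leaving out each library), negative in all settings. Among their leading members were Hadha of mitochondrial beta-oxidation (-0.71 ± 0.43) and the partner receptor Rxrb (-0.96 ± 0.68). The list's median genotype effect was 0.41 after saline and -0.13 after carrageenan.

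For prostanoid synthesis and receptors, 5 of 14 members were positive, with a median of -0.43 (-0.08 with edgeR), and Ptges3 was the one member under p 0.05. Pla2g4a, the phospholipase that frees arachidonic acid, differed by -1.16 ± 0.80 and Hpgds, which makes prostaglandin D2, by 0.89 ± 0.71.

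Interferon-induced genes depended on the model. Of 27 antiviral interferon-stimulated genes 11 were positive with limma (median -0.71) and 17 with edgeR (median 0.12); leaving out each library put the limma median at -1.07 to 0.02. Ifit3, an antiviral effector, was the one under p 0.05, at 0, 2.43 and 0 in Flox saline, 3.89, 6.43 and 3.11 in cKO saline, 58.3, 167 and 106 in Flox carrageenan and 87.4, 96.5 and 107 in cKO carrageenan. All saline values were low and rested on 0, 1 and 0 reads in Flox, and the carrageenan values overlapped (difference -1.88 ± 0.84). Oasl1 differed by -2.02 ± 1.10. Guanylate-binding and immunity-related GTPases, which interferon-gamma induces, were positive in 3 of 11, with a median of -1.05 (-0.51 with edgeR, -1.21 to -0.43 on leaving out each library). That median was negative in all settings, with 0 members under p 0.05; Gbp7 was at -1.10 ± 0.69, Gbp2 at -1.50 ± 1.04 and Iigp1 at -1.36 ± 0.92.

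**Figure D5:**
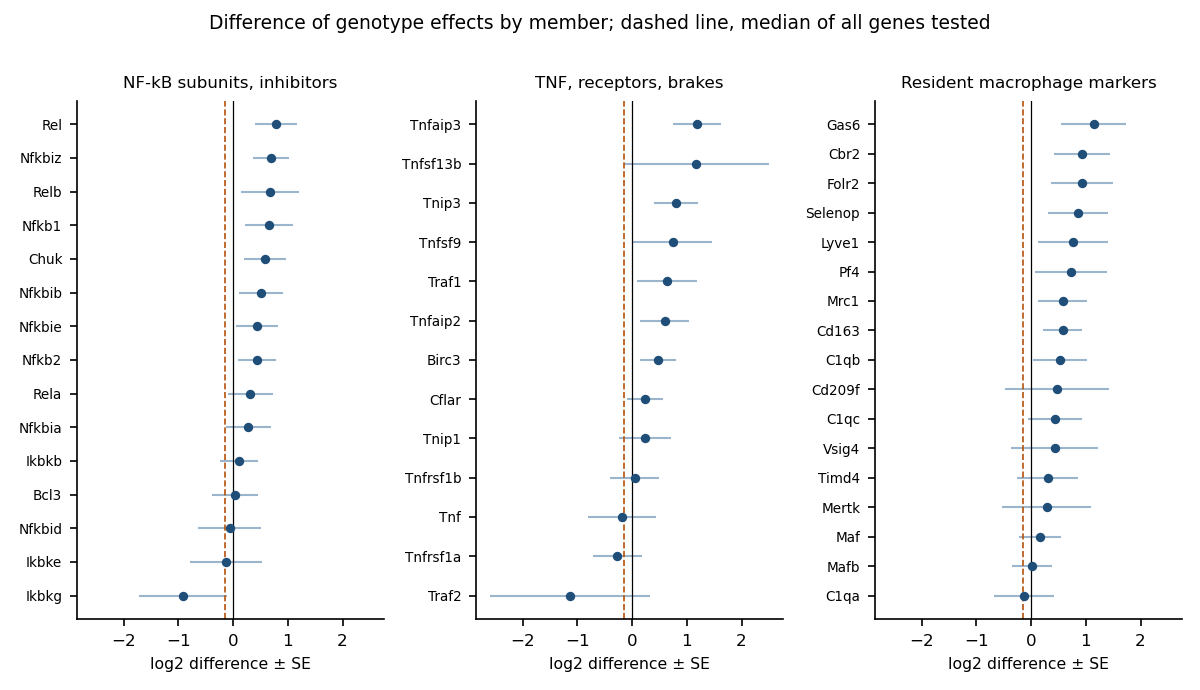
Difference of genotype effects (log2, x axis) for each tested member (y axis) of 3 lists; points are the limma estimates, bars 1 SE to either side, and the dashed line the median of all genes tested (-0.149). In all 3 lists (NF-kB, TNF and resident macrophage markers) most points lie to the right of 0, with bars that often reach or near it.

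Markers of resident macrophages had a positive median in all 25 settings. Of 17 tested members 16 were positive, with a median of 0.53 (0.70 with edgeR, 0.34 to 0.97 on leaving out each library) and 0 under p 0.05. The markers were lower after carrageenan in both genotypes, with median steps of -1.84 in Flox and -1.38 in cKO. Summed over the list, normalized counts were 12147 to 17880.4 in Flox saline, 18379 to 26489 in cKO saline, and after carrageenan 3636 to 4896 in Flox and 5142 to 11889.9 in cKO. The cKO libraries were thus above the Flox libraries in both treatments, and their summed range after carrageenan was wide. The low end was cKO carrageenan 9-12: without it the median was 0.97, and without it and Flox saline 1-3 it was 1.17, with 14 of 17 positive. Gas6, a bridge to apoptotic cells, was read at 1071, 693 and 770.2 in Flox saline and 1163, 1431 and 947 in cKO saline. After carrageenan it was read at 127, 72.00 and 116 in Flox and 545, 422 and 138 in cKO. Every cKO carrageenan library was above every Flox one, and cKO 9-12 was near the Flox values (difference 1.14 ± 0.59). Cbr2 differed by 0.93 ± 0.52 and Cd163, the haemoglobin scavenger receptor, by 0.57 ± 0.35.

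Related functions of macrophages were mixed. Complement components and receptors were positive in 10 of 16 (median 0.39, 0.10 to 0.58 on leaving out each library) and MHC class II with costimulatory genes in 9 of 13 (median 0.24, 0.08 to 0.37); both had 0 members under p 0.05. The complement list shares C1qa, C1qb and C1qc with the resident macrophage markers, so these lists are not separate results. Itgax, the integrin CD11c, was at 0.91 ± 0.49, properdin (Cfp) at -0.61 ± 0.37 and the anaphylatoxin receptor C3ar1 at 0.46 ± 0.34. H2-Eb1, an antigen-presenting chain, differed by 0.52 ± 0.51, the chaperone chain H2-DMa by 0.31 ± 0.33 and the costimulator Cd80 by -0.58 ± 0.59. Macrophage C-type lectins were positive in 8 of 18 (median -0.15) and in 10 of 18 with edgeR (median 0.04). Without Flox saline 1-3 they were positive in 13 of 18 (median 0.12), and the median kept its sign in 12 of 25 settings, so no direction is given. The lectins with the smallest p were Cd209b (1.98 ± 0.94) and Clec12a (-1.04 ± 0.60). In the inflammasome list 6 of 11 were positive (median 0.22, -0.28 to 0.35 on leaving out each library); Mefv, which encodes the sensor pyrin, was at 0.89 ± 0.42 and the caspase gene Casp4 at 0.95 ± 0.52.

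Growth factors and immune ligands held 3 members under p 0.05. Besides Csf1, in a list with 5 of 13 positive (median -0.44, 0.0037 with edgeR), these were a pair from the interleukin-10 axis and checkpoint list (6 of 13 positive, median -0.11). The median of that second list kept its sign in 19 of 25 settings and was 0.51 without Flox saline 1-3. Tgfbr1, a receptor for TGF-beta, was at 87.4, 60.8 and 40.96 in Flox saline and 48.8, 54.1 and 27.98 in cKO saline, which overlapped. After carrageenan every cKO library (56.4, 61.4 and 47.6) was above every Flox library (38.04, 32.7 and 29.2), and the difference was 1.22 ± 0.50. Cd274, the checkpoint ligand PD-L1, was at 0, 2.43 and 23.9 in Flox saline, 16.3, 21.96 and 19.3 in cKO saline, 188, 265 and 194 in Flox carrageenan and 118, 169.9 and 249.9 in cKO carrageenan. It was strongly higher after carrageenan in both genotypes, overlapped in both treatments, and differed by -2.50 ± 1.11 (-0.76 with edgeR). Vsir, the checkpoint receptor VISTA, was at 0.67 ± 0.34. Inhba, a subunit of activin, came to -2.37 ± 1.26 with limma and -0.32 with edgeR, and the vasoconstrictor gene Edn1 to -1.29 ± 1.01 and 0.0037.

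Markers of fibroblasts, endothelial and mural cells and keratinocytes, cells that the gate should leave out, had negative medians in the same contrast. Fibroblast markers were positive in 1 of 10 (median -1.38, -0.76 with edgeR); their summed counts were 81.9 to 760.0 in Flox saline, 358 to 922 in cKO saline, and after carrageenan 841 to 1538 in Flox and 862 to 1275 in cKO. Endothelial and mural markers were positive in 0 of 6 (median -2.28), with sums of 0 to 34.1, 38.3 to 86.4, 65.5 to 78.6 and 47.6 to 65.1 in the same order. Keratinocyte markers were positive in 2 of 9 (median -0.82, -0.52 with edgeR, -1.16 to -0.11 on leaving out each library, highest without Flox saline 1-3). Without that library and cKO carrageenan 9-12 the median was 0.025 with 5 of 9 positive. Their sums were 399 to 734, 936 to 1893, 514 to 834 and 660.4 to 1166 in that order. For all 3 lists the Flox saline libraries included the lowest sums, as for the leading negative genes above. Single members were the collagens Col1a1 (-2.01 ± 1.14) and Col3a1 (-1.86 ± 1.07), Thy1 (-2.00 ± 1.11), smooth muscle actin Acta2 (-2.73 ± 1.08, under p 0.05), the endothelial Cdh5 (-2.39 ± 1.18) and Pecam1 (-1.85 ± 0.97), and the epidermal Krt10 (-1.17 ± 0.61), Krt5 (-1.08 ± 0.58) and Perp (-1.16 ± 0.56).

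Lymphoid and granulocyte markers were sparse. Of 10 mast cell and basophil markers 3 passed the filter, and 2 of these were positive (median 1.05, 1.54 with edgeR). That median kept its sign in 21 of 25 settings and was -0.45 without Flox saline 1-3. Gzma, the granzyme of cytotoxic lymphocytes, had the smallest p of any list member (adjusted p = 0.967, limma). It held 0, 0 and 1 reads in Flox saline, 0, 0 and 0 in cKO saline, 5, 10 and 20 in Flox carrageenan and 0, 4 and 0 in cKO carrageenan. Most of its reads thus lay in the Flox carrageenan libraries (difference -3.54 ± 0.92). Gzma passed the filter through that group alone, so its rank and the size of its difference follow in part from the filter. Of 15 T, B and NK cell markers 3 passed the filter (Gzma, Gzmb and Cd4), and 0 of them were positive. Gzmb, a second granzyme, was better read after carrageenan, with 42, 16 and 48 reads in Flox and 134, 151 and 6 in cKO. These reads are not scaled for depth. In the same order, 1 read was worth 2.54, 3.27 and 0.729 normalized counts in Flox and 0.334, 0.286 and 1.49 in cKO. The difference of Gzmb was thus negative like that of Gzma, and the median of the 3 tested members was -1.49. Of the T and B cell markers, Cd3d, Cd8a and Cd79a were at 0 reads in all libraries, but over all 12 libraries Trbc2 held 49 reads, Cd79b 14, Cd3e 7, Ms4a1 2 and Cd3g 1. Also at 0 were Camp and Ngp of neutrophil precursors, Epx of eosinophils and Myh4 of muscle. Neutrophil markers were positive in 2 of 8 (median -0.78, 0.12 with edgeR), with S100a9 at -2.21 ± 1.34 and Retnlg at 2.03 ± 1.07. Acute-phase and alarmin genes were positive in 0 of 10 with limma (median -1.01) but in 6 of 10 with edgeR (median 0.16); Saa3, serum amyloid A3, was at -1.38 ± 1.06 with limma and 0.26 with edgeR. Markers of inflammatory monocytes turned in the same way, from 3 of 14 positive (median -0.29) to 11 of 14 (0.33). No direction is therefore given for these 3 lists.

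Cytosolic ribosomal protein genes, which every cell expresses, were positive in 1 of 25 (median -0.47), in 7 of 25 with edgeR (median -0.10) and in 10 of 25 without Flox saline 1-3. Rpl13a differed by -1.90 ± 1.47, Rps14 by -0.85 ± 0.68 and Rpl8 by -0.85 ± 0.73. The median was negative in all 25 settings. It ranged from -0.05 without Flox saline 1-3 to -0.99 without cKO carrageenan 9-12, and without both libraries it was -0.48 with 3 of 25 positive.

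The authors' deposited tables compare the genotypes within each treatment, and call 20 genes in saline and 5 in carrageenan at an adjusted p under 0.05, with 4 in both: Lyz1 and the heat shock genes Hspa1a, Hspa1b and Hsph1. All of the called genes had the same sign in the other treatment in those tables. In the present contrast 1 of them was under an unadjusted p of 0.05 (limma), named after its value was seen: Npepps, an aminopeptidase. The authors' deposited table gives it a log2 fold change of 1.53 in saline and 0.489 in carrageenan. It was read at 10.9, 26.7 and 20.5 in Flox saline, 89.8, 97.2 and 49.8 in cKO saline, 40.6, 105 and 69.2 in Flox carrageenan and 126, 119 and 68.4 in cKO carrageenan, so the genotypes were apart in saline and overlapped after carrageenan. Its difference was -1.40 ± 0.61 (adjusted p = 0.967, limma).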

How the data were processed

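RNA of sorted paw cells was measured in 12 pooled 3' mRNA libraries with unique molecular identifiers, per the labels; cutadapt, STAR and GRCm38 are named in the submitters' processing notes, and whether reads were collapsed by identifier is not stated there. The authors deposited a signal in normalized counts, that is, reads over the size factor of each library, set separately for saline and for carrageenan libraries; a scale factor per treatment cancels in the contrast for all but the lowest values. Tables of the authors' own comparisons give, per the file headers, log2 fold changes, a test statistic (score, not used), p-values and adjusted p-values. All low values of a library were whole multiples of 1 step (100%, tolerance 0.001), so whole reads were recovered for count models. Of 55522 rows, 121 were not genes (0.170 to 2.23% of reads) and were left out; symbols were found for 55141 gene IDs, which were placed with the GENCODE vM21 annotation of GRCm38. Pairs of libraries in a group differed beyond counting error (chi-square over its degrees of freedom, 2.71 to 16.3), and p-values measure the spread between pools.

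The test was limma 3.58.1 with a mean trend (R 4.3.3) on log2(normalized count + 1), for genes with at least 5 in at least 3 of 12 libraries, with 4 group means, the interaction contrast and Benjamini-Hochberg adjustment over 10243 genes. Responses to carrageenan were fitted after placing all libraries on a common scale by medians of ratios over the 6501 genes read in every library, so a pair of responses can differ slightly from the contrast. Alternatives were edgeR 4.0.16, DESeq2 1.42.0 and voom on reads, pseudocounts 0.5 and 5, other filters, library quality weights (fitted gene by gene, since the default did not converge), thinned reads, a block, and libraries left out. Those without the 2 libraries that stood apart, and for responses those chosen in 1 genotype or without the shallowest libraries, were added after seeing the data. The fit was tested on simulated data. Named genes were Fabp5, Lyz2, Lyz1, the 12 genes with the smallest p in each direction at a mean of at least 20, up to 3 members with the smallest p per list, crossing genes at a mean of at least 20, and mediators named for their role; a few genes that the rule names are not reported here. The members and lists were chosen with earlier results of these data known. Of 761 listed genes 666 were tested; a gene can pass the filter through 1 group alone.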

Additional observations from a re-analysis of the deposited data

Results flagged for a closer look

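The genes below with a mean of at least 20 normalized counts had genotypes that did not overlap in saline and did not overlap, in the opposite order, after carrageenan, so that every library of one genotype lay on one side and then on the other. The test of the difference itself gave an adjusted p of 0.967 (limma) for each, and 0.273% of all tested genes showed such a crossing. Random order of 3 libraries against 3 also gives some crossings, and an excess over that was not tested. Higher in Flox in saline and in cKO after carrageenan were Nkapd1 (difference 3.18), Zfp638 (1.16), Lpin2 (0.92) and Ptges3 (0.86). Higher in cKO in saline and in Flox after carrageenan were Csf1 (-2.62), Rsbn1 (-2.28), Nelfa (-2.27), Mrpl18 (-1.29), Mtfr1l (-1.12) and H2afy (-0.62). Groups of 3 libraries were too small to test for a single library far from the others.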

How the results depend on the processing

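No gene passed an adjusted p of 0.05 in any of the 25 alternatives. The 244 genes at an unadjusted p under 0.05 became 635 of 22055 without a filter, 94 of 5605 with at least 20 in 6 libraries, 552 with library quality weights, 487 with thinned reads, 374 without the shallowest library of each treatment, 450 without Flox saline 1-3 and cKO carrageenan 9-12, and 125 to 841 on leaving out each library, the highest without Flox saline 8-10. Of those genes, 40.2% were positive with limma, 61.3% with edgeR and 21.6% without Flox saline 8-10. The mouse number ranges recur in saline and carrageenan, and the labels do not say whether a range marks the same mice. The main test left the range out. As a block it gave 282 genes at an unadjusted p under 0.05, 0 adjusted, 67.2% and 78.2% smaller responses and 1217 response genes. Same-range correlations were -0.0185 to 0.110 in Flox and 0.199 to 0.435 in cKO. Between different ranges they were -0.0795 to 0.0486 in Flox and -0.396 to 0.237 in cKO. The highest of these, carrageenan 1-4 with saline 5-8, was above the same-range value of carrageenan 1-4 (0.199). The 68.1% of risen genes with a smaller response in cKO became 56.8% with thinned reads, 59.6% without the shallowest libraries, 64.2% without the 2 libraries that stood apart, 61.8% at an adjusted p under 0.01, 80.6% chosen in Flox, 40.9% chosen in cKO, and 58.3 to 78.5% on leaving out each library. The share of all genes with a lower step in cKO moved as well, from 46.9 to 59.5% on leaving out each library; without cKO carrageenan 1-4, which gave the 58.3%, it was 56.3%. The 77.9% of fallen genes became 72.4% with thinned reads, 70.9% without the shallowest, 94.0% in Flox, 51.8% in cKO, and 67.1 to 84.5%. The 1194 response genes became 620 with thinned reads, 618 at an adjusted p under 0.01 and 789 to 1548 on leaving out each library.

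Of 107 genes named, 99 kept their sign wherever a value could be had. Most were picked by the smallest p of this difference, and the settings reuse the same libraries, so this is not separate support. Fabp5 turned to 0.32 without the shallowest libraries. Lyz1 ranged from -0.028 to 0.337, Ptgs2 from -0.92 to 0.44, Il1b from -0.38 to 0.24 and Tnf from -0.67 to 0.23 on leaving out each library. With edgeR, DESeq2 and voom, Ptgs2 was 0.40, 0.30 and 0.14, Il1b 0.12, 0.081 and 0.014, and Tnf 0.24, 0.16 and 0.065; without the shallowest libraries Il1b was 0.16 and Tnf 0.35. Tnf was also 0.39 with quality weights and 0.65 without the 2 libraries that stood apart, where Mgll was 0.24. Edn1 was 0.0037 with edgeR, and Saa3 0.26 with edgeR and 0.059 with DESeq2. Over the 53 lists and the 15 alternatives set out at the start, 74 of 795 list medians moved by more than the spread, in 38 lists. Where 1 group was left with 2 libraries, they were assumed to vary like the rest; the cause of each shift was not tested. Depth limits the contrast most in Flox, where 1 read reached 5.46 normalized counts.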
